A study of Caenorhabditis elegans with 9 samples.

Results

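The muscle myofilament genes of Caenorhabditis elegans described here are 10 genes chosen by name from the 46284 gene IDs of the deposited table: the myosin heavy chain genes myo-1, myo-2, myo-3 and unc-54, the paramyosin gene unc-15, the myosin light chain genes mlc-1, mlc-2 and mlc-3, the tropomyosin gene lev-11 and the muscle actin gene act-4. All 10 were found by their WormBase IDs, none was listed at 0 in any library, and all passed the filter on low values. RNA was measured in whole wild-type animals of the laboratory strain N2 after 12 h in liquid culture, with 500 animals per sample. There were 3 groups of 3 libraries: animals given no nanomaterial (treatment none, the control), animals given graphene oxide (GO, an oxidised carbon sheet) and animals given amino-functionalized graphene oxide (GONH2). The labels used here give no dose, no age and no statement that replicates were grown apart, so each p value reflects only the variation among these libraries, which may be technical. Every group held intact worms of all tissues, and the values are relative to the whole library. Fewer muscle cells, less RNA per muscle cell and more RNA from other tissues therefore cannot be told apart.

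Muscle contracts when thick filaments of myosin pull on thin filaments of actin. In the worm a thick filament of body wall muscle has a core of paramyosin, with the myosin heavy chain MYO-3 at its centre and UNC-54 along its arms, while pharyngeal muscle, the pump that draws in food, uses the heavy chains MYO-1 and MYO-2. Each heavy chain binds an essential and a regulatory light chain, and tropomyosin with the troponins lies along actin and gates contraction by calcium.

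Of the 10 members 0 passed the test in any comparison. Of all genes tested, 1.26% passed in GO minus control, 0.436% in GONH2 minus control and 0.132% in GONH2 minus GO. At these shares 0 of 10 is near the background. For 7 members, the genes other than myo-1, myo-2 and myo-3, the 95% confidence intervals of the differences from control lay within −10.5% and 12.2%. The members nearest to the threshold were the pharyngeal heavy chains myo-1 and myo-2, which had their lowest levels with GO and values in between with GONH2. Differences are given on the log2(FPKM + 1) scale, where FPKM is a fragment count scaled to transcript length and library size, and the test is limma's moderated test with Benjamini-Hochberg adjustment over the 12849 genes tested, at a threshold of 0.05.

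The libraries gave FPKM sums of 955606 to 1010904 and 12299 to 12676 genes with at least 1 FPKM, and log2 values of libraries correlated at 0.974 to 0.98 within groups and 0.968 to 0.983 between groups (Pearson's r over the genes tested). Read totals are unknown. Markers of the tissues of a whole worm were present: of 9 neuron, 6 intestine and 8 germline markers, 0 were under 1 FPKM in all libraries, and of 7 hypodermis and cuticle markers 3 were (rol-6, bli-1 and lon-3). The body wall muscle regulator hlh-1 lay between 8.8 and 13.8 FPKM and the pharynx regulator pha-4 between 18.1 and 26.8.

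In FPKM, a level per length, the 10 genes spanned more than 2 orders of magnitude. The order of mean levels over the 9 libraries was mlc-2 (1094.5 FPKM, rank 154 of 12849 genes), mlc-3 (717.8), act-4 (705.9), lev-11 (623.4), unc-15 (325.3), mlc-1 (274.2), unc-54 (224.7), myo-3 (20.1), myo-2 (11.3) and myo-1 (9.83, rank 7886). Of the 9 neighbouring pairs in this order, mlc-3 with act-4 and myo-2 with myo-1 had overlapping ranges over the libraries, and the other 7 did not. Even so, myo-2 exceeded myo-1 in 9 of 9 libraries, and mlc-3 exceeded act-4 in 6. Together the 10 genes made up between 0.392% and 0.426% of the FPKM of a library.

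**Figure D1:**
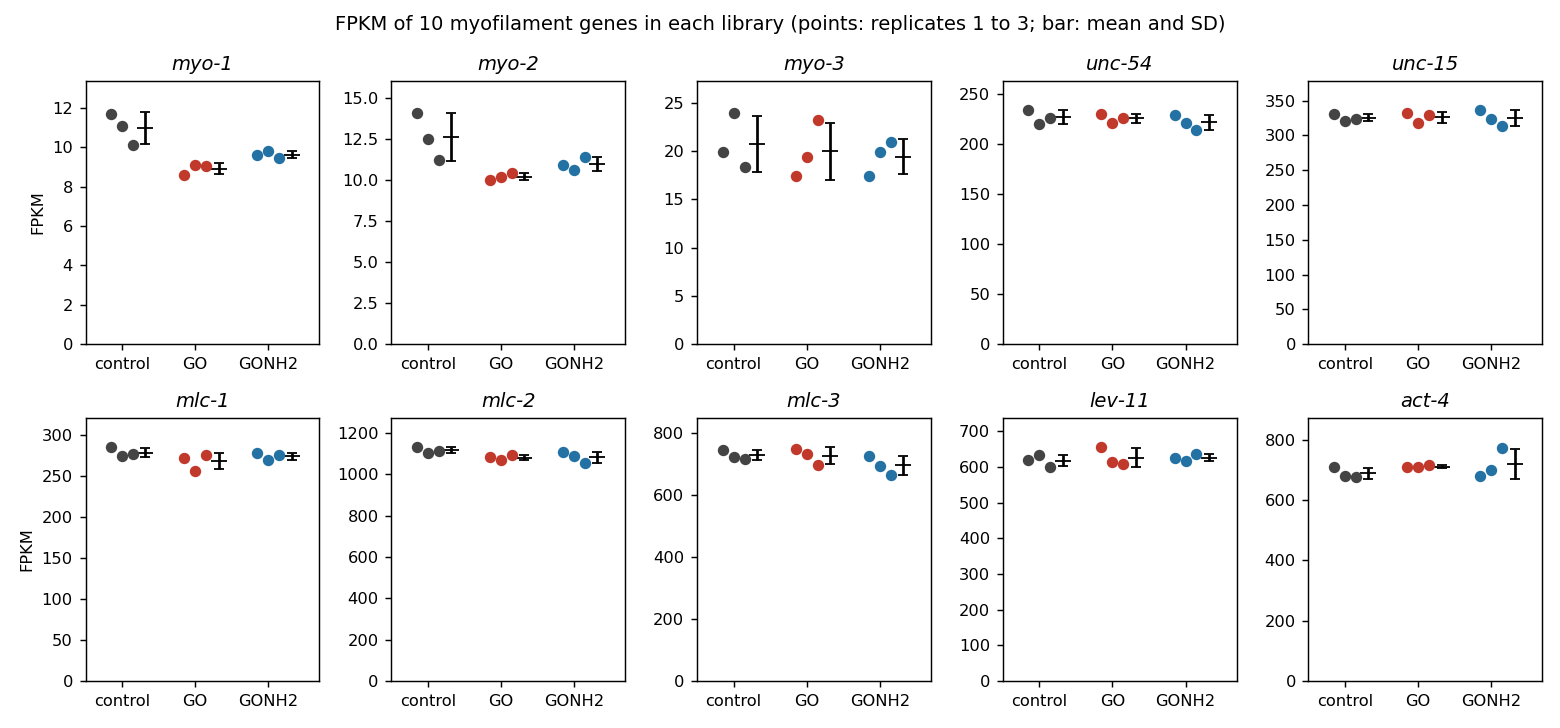
FPKM (vertical axes, starting at 0) of each of the 10 genes in control, GO and GONH2 libraries; points are replicates 1 to 3 and the bar gives the mean and SD of 3 libraries. The groups of myo-1 do not overlap (control 10.1 to 11.7, GO 8.61 to 9.1, GONH2 9.47 to 9.81), while those of unc-54 lie together between 214.3 and 233.8.

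Among the heavy chains, unc-54 encodes the major myosin of body wall muscle (chromosome I, 14855901 to 14863482, minus strand in the WBcel235 annotation; 1 annotated transcript of 9 exons). Its levels were 233.8, 220.0 and 226.4 FPKM in the control libraries, 230.2, 221.2 and 226 with GO, and 229.5, 221.1 and 214.3 with GONH2. The groups overlapped, and no library stood apart. The difference was −0.0056 ± 0.035 (SE) for GO minus control, with a 95% confidence interval from −5.72% to 5.24% in FPKM + 1 and an adjusted p = 0.995. For GONH2 minus control it was −0.033 ± 0.035, with an interval from −7.49% to 3.26%.

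The second body wall heavy chain gene, myo-3 (chromosome V, 12226817 to 12234343), was listed at 19.9, 24.0 and 18.4 FPKM in control, 17.4, 19.4 and 23.2 with GO, and 17.4, 19.9 and 21.0 with GONH2. It varied most among the 10 genes: control replicate 2 and GO replicate 3 were high and GO replicate 1 and GONH2 replicate 1 low, and the groups overlapped widely. Its residual SD on the log2 scale was 0.177, at percentile 70.2 of all genes tested, against 0.0414 and percentile 10.3 for unc-54. The interval for GO minus control ran from −21.4% to 17.9%, so differences of the size measured for myo-1 and myo-2 were not detectable for myo-3 with 3 libraries per group. The ratio of unc-54 to myo-3 FPKM was 11.1 ± 1.68 in control, 11.5 ± 1.76 with GO and 11.5 ± 1.54 with GONH2 (SD, n = 3), which overlap.

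The pharyngeal heavy chain gene myo-1 (chromosome I, 7258946 to 7267057) was listed at 11.7, 11.1 and 10.1 FPKM in control, 8.61, 9.1 and 9.05 with GO, and 9.61, 9.81 and 9.47 with GONH2. All GO libraries lay below all GONH2 libraries, and these below all control libraries. GO minus control was −0.27 ± 0.071 (95% interval −25.7% to −7.12%, unadjusted p = 0.00476), but with limma's adjustment over all genes p was 0.2. For GONH2 minus control the difference was −0.17 ± 0.071 (interval −20.4% to −0.457%, limma adjusted p = 0.887), and for GONH2 minus GO it was 0.1 ± 0.071 (interval −4.16% to 19.8%).

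The other pharyngeal heavy chain gene, myo-2 (chromosome X, 12468061 to 12475348), was listed at 14.1, 12.5 and 11.2 FPKM in control, 10, 10.2 and 10.4 with GO, and 10.9, 10.6 and 11.4 with GONH2. The GO libraries were below all others, and the GONH2 libraries overlapped the control range only through GONH2 replicate 3. Without control replicate 1 the difference for GONH2 minus control was −0.103. With all libraries, the differences were −0.28 ± 0.083 for GO minus control (interval −27.8% to −5.98%, unadjusted p = 0.00926, limma adjusted p = 0.302) and −0.18 ± 0.083 for GONH2 minus control (interval −22.7% to 0.646%, limma adjusted p = 0.968). Both pharyngeal heavy chains spread most in the control group, where replicate 1 was highest and replicate 3 lowest. The SD of myo-2 was 1.45 FPKM in control against 0.183 with GO and 0.391 with GONH2.

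The ratio of myo-2 to myo-1 FPKM overlapped between the groups, at 1.15 ± 0.0539 in control, 1.14 ± 0.0223 with GO and 1.14 ± 0.0602 with GONH2 (SD, n = 3). The pharyngeal pair supplied 9.22%, 8.82% and 8.02% of the summed FPKM of the 4 heavy chain genes in the control libraries, 6.99%, 7.41% and 7.23% with GO, and 7.67%, 7.82% and 8.15% with GONH2. GO did not overlap with either other group in this share, and GONH2 overlapped with control. No test is given for this share, because the members were chosen with earlier results known.

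**Figure D2:**
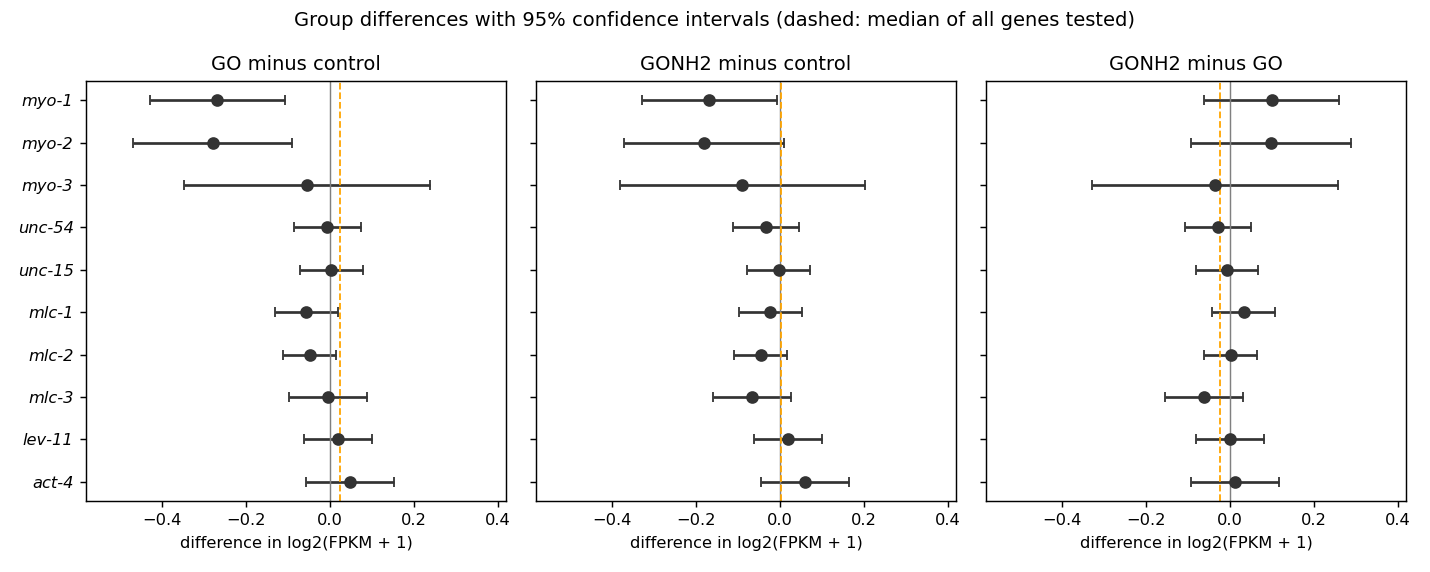
Differences between groups in log2(FPKM + 1) (horizontal axes) for the 10 genes, with 95% confidence intervals from limma; the dashed line is the median of all 12849 genes tested. For GO minus control only the intervals of myo-1 (−0.429 to −0.107) and myo-2 (−0.469 to −0.0889) leave out 0, and none of the 10 genes has an adjusted p under 0.05 in any of the 3 comparisons.

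Paramyosin, the core of the thick filament, is encoded by unc-15 (chromosome I, 7376604 to 7383197; 3 annotated transcripts). Its level was 325.2 ± 5.26 FPKM in control, 326.1 ± 7.98 with GO and 324.8 ± 11.4 with GONH2 (SD, n = 3). These means differ by less than the SD of any group. The intervals ran from −4.79% to 5.59% for GO minus control and from −5.2% to 5.14% for GONH2 minus control. The ratio of unc-15 to unc-54 FPKM stayed between 1.41 and 1.47 over the 9 libraries.

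The regulatory light chain genes mlc-1 and mlc-2 lie head to head on chromosome X (mlc-2 at 17455792 to 17456586 on the minus strand, mlc-1 at 17459210 to 17460778 on the plus strand), with 2623 bases between them. Their products are near-identical, so how the authors' counting shared reads between them is uncertain. mlc-2 was listed at 1134, 1105.6 and 1114.1 FPKM in control, 1082.3, 1070.9 and 1092.1 with GO, and 1107.8, 1089.2 and 1053.9 with GONH2. All GO libraries were below all control libraries, but GONH2 spanned from the lowest value of all into the control range. The difference was −0.047 ± 0.028 for GO minus control (interval −7.36% to 1.09%, limma adjusted p = 0.799) and −0.045 ± 0.028 for GONH2 minus control (interval −7.22% to 1.25%). mlc-2 had the least spread of the 10 genes, with a residual SD of 0.0251, at percentile 1.62 of all genes tested.

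mlc-1 had 279.1 ± 5.78 FPKM in control, 268.6 ± 10.1 with GO and 274.8 ± 4.29 with GONH2 (SD, n = 3), and its groups overlapped. The interval for GO minus control was −8.65% to 1.34%. The ratio of mlc-2 to mlc-1 FPKM lay between 3.82 and 4.17 in all libraries. Their summed level was 1420, 1380 and 1391 FPKM in control, 1355, 1328 and 1368 with GO, and 1386, 1359 and 1330 with GONH2. This sum still depends in part on how reads were shared, since the annotated exonic lengths differ (1155 bases for mlc-1 and 641 for mlc-2). GO was below control in this sum without overlap, and GONH2 overlapped with both.

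The essential light chain gene mlc-3 (chromosome III, 5565025 to 5567382) was listed at 746.8, 723.4 and 717.5 FPKM in control, 750.9, 734.0 and 697.2 with GO, and 727.9, 695.9 and 666.6 with GONH2. The GONH2 mean was the lowest, at 696.8 ± 30.7 FPKM (SD, n = 3), but the groups overlapped. GONH2 minus control was −0.066 ± 0.041 (interval −10.5% to 1.9%) and GO minus control −0.0042 ± 0.041 (interval −6.54% to 6.37%). The FPKM of the 3 light chain genes summed to 7.69 to 7.94 times that of the 4 heavy chain genes in every library.

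Of the thin filament members, lev-11 encodes tropomyosin (chromosome I, 14621169 to 14631094), with 20 annotated transcripts, which the gene values do not separate. Its level was 617.7 ± 16.4 FPKM in control, 626.1 ± 26 with GO and 626.3 ± 9.33 with GONH2 (SD, n = 3). The groups overlapped, and the intervals were −4.21% to 7.19% for GO minus control and −4.14% to 7.27% for GONH2 minus control.

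act-4 encodes an actin of body wall and other muscles (chromosome X, 4960621 to 4964413). It was listed at 709.2, 678.6 and 676.3 FPKM in control, 708.7, 709.2 and 715.4 with GO, and 681.3, 700.6 and 774.2 with GONH2. GONH2 replicate 3 was the highest of the 9 libraries, and the groups overlapped. The differences were 0.048 ± 0.046 for GO minus control (interval −3.91% to 11.2%) and 0.061 ± 0.046 for GONH2 minus control (interval −3.03% to 12.2%). The worm's actin genes are near-identical in sequence, so the split between act-4 and act-1, act-2 and act-3 is uncertain. Summed, these 4 genes had 1963.2 ± 106.4 FPKM in control, 1894.9 ± 73.3 with GO and 1957.6 ± 106.1 with GONH2 (SD, n = 3), with act-4 supplying 32.7% to 39.1% of the sum.

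Read against all genes, 0 of the 10 members were called in GO minus control, where limma called 1.26% of all genes tested. It called 0 members in GONH2 minus control, where 0.436% of all genes were called, and 0 in GONH2 minus GO, where 0.132% were. At these shares a count of 0 among 10 genes is near the background and is no result about the members. At an unadjusted p under 0.05 there were 2 members in GO minus control (myo-1 and myo-2, both lower; 1.53% of all genes were lower at this p), 1 in GONH2 minus control (myo-1, lower; 1.92% of all genes; p reached 0.142, without control replicate 1) and 0 in GONH2 minus GO (4.65% of all genes in either direction). The groups did not overlap in 3 members for GO minus control (myo-1, myo-2 and mlc-2, all lower; 3.12% of all genes), in 1 for GONH2 minus control (myo-1, lower; 3.65%) and in 2 for GONH2 minus GO (myo-1 and myo-2, higher with GONH2; 2.93%). GO minus control and GONH2 minus control share the control libraries. The 10 members had a median difference of −0.027 with GO against control, where all genes tested had 0.024. With GONH2 against control it was −0.039, beside 0.0031 over all genes, and with GONH2 against GO it was 0.0016, beside −0.024.

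The members other than the pharyngeal heavy chains and myo-3 were among the steadier genes of the table. Residual SDs of 7 of the 10 lay under percentile 25 of all genes tested, a scale on which abundant genes tend to be low. myo-1 lay just above this cut, at percentile 25.3 against 24.4 for act-4, while myo-2 was at 43.1 and myo-3 at 70.2. For these 7 genes, and also for myo-1 and myo-2, the intervals were narrower than the median interval over all genes tested, which extended 0.217 to each side in log2. Only the interval of myo-3 was wider. The widest limits of the 7 genes in the comparisons with control were −10.5% (mlc-3) and 12.2% (act-4), both with GONH2.

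Lists of other muscle genes held 77 symbols, of which 76 were matched and tested, and 0 were called in any of the 3 comparisons. At an unadjusted p under 0.05, 1 was higher and 4 lower in GO minus control, 2 and 3 in GONH2 minus control, and 0 and 0 in GONH2 minus GO. The medians over these 76 genes were 0.0022, −0.019 and −0.016. Over all genes tested, 1.53% were lower at this p in GO minus control and 1.92% in GONH2 minus control. In GONH2 minus GO 4.65% were under this p in either direction. The shares of all genes that were higher are not given here, so the counts of higher genes cannot be read against a background. The genes that were lower at this p in GO minus control were myo-5, myo-6, tnc-2 and tnt-4. The higher gene was atn-1 (0.13 ± 0.044, limma adjusted p = 0.42), with GO above control without overlap. In GONH2 minus control act-1 (0.12 ± 0.049) and zyx-1 (0.1 ± 0.04) were higher, and myo-6, tnc-2 and tnt-4 lower.

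The troponin T gene tnt-4 and the troponin C gene tnc-2 belong to pharyngeal muscle, as does the troponin I gene tni-4. They were on the fixed lists, but were brought together here after their values were seen, so no test of the group is given. tnt-4 was listed at 17.4, 17 and 12 FPKM in control, 10.6, 10.7 and 11.5 with GO, and 12.8, 10.5 and 11.5 with GONH2. Control replicate 3 lay near the treated libraries, and the GO difference of −0.45 ± 0.14 did not pass (limma adjusted p = 0.325). tnc-2 had 19.2, 19.8 and 16.4 FPKM in control, 14.3, 15.8 and 15.4 with GO, and 16.3, 16.1 and 16 with GONH2 (GO minus control −0.26 ± 0.075, limma adjusted p = 0.262). All GO and GONH2 libraries were below the lowest control library.

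The sarcomeric myosin gene myo-5 had 5.32 ± 0.633 FPKM in control, 4.23 ± 0.327 with GO and 4.37 ± 0.177 with GONH2 (SD, n = 3), with control above both other groups without overlap. myo-6, the other such gene listed, had 2.71 ± 0.565, 1.91 ± 0.15 and 1.69 ± 0.174 FPKM. Its GO minus control difference was −0.34 and its GONH2 minus control difference −0.46, with limma adjusted p of 0.571 and 0.484. tni-4 overlapped between the groups (49.5 ± 5.34, 43.7 ± 3.94 and 45.6 ± 1.28 FPKM). Control replicate 3 was the lowest control library in myo-1, myo-2, myo-5, myo-6, tnt-4, tnc-2 and tni-4 alike. This order was not particular to these genes. It also held for the body wall genes myo-3 (18.4 FPKM) and hlh-1 (9.68) and the neuron marker rab-3 (4.11), but not for unc-54 or unc-27. The share of all genes with this order was not counted.

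**Figure D3:**
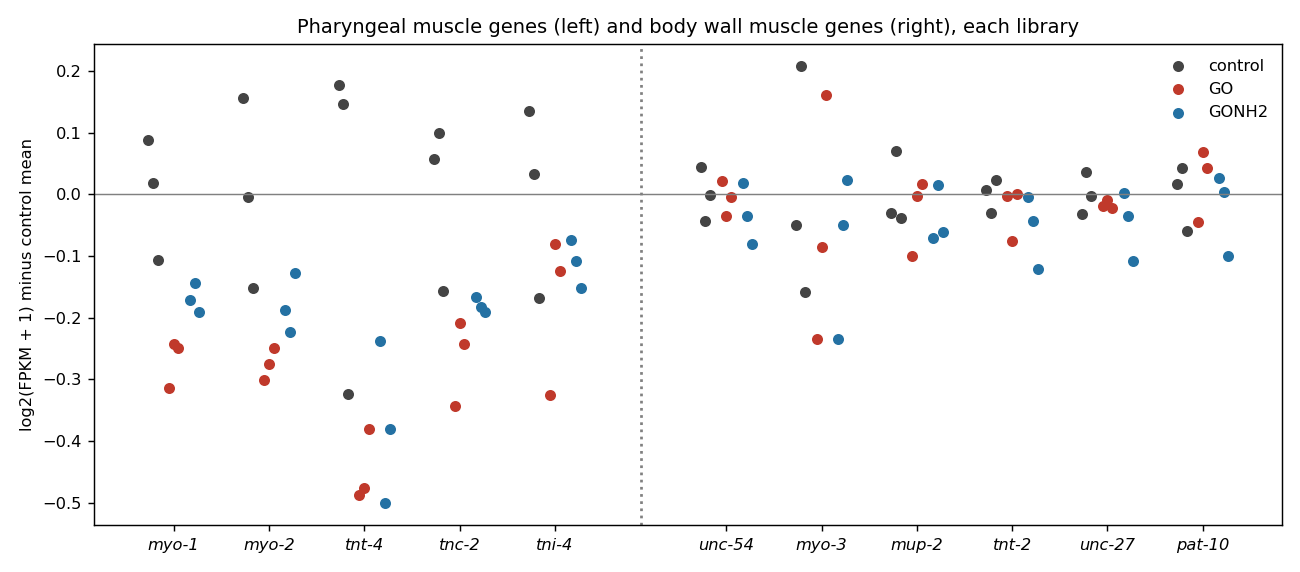
Each library's log2(FPKM + 1) minus the control mean (vertical axis) for 5 pharyngeal muscle genes on the left and 6 body wall muscle genes on the right, in control, GO and GONH2; 1 point is 1 library. The GO points of myo-1, myo-2, tnt-4 and tnc-2 lie below all their control points. Those of tni-4 and of the 6 body wall genes overlap their control points. The genes were grouped after their values were seen, so the contrast of the 2 sides depends on which genes are drawn. Not drawn are, among others, the thin filament genes tni-1 (GO minus control −0.142) and tni-3 (−0.0219). The same holds for the pharyngeal factors pha-4 (0.262) and ceh-22 (0.115).

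Transcription factors of muscle did not show lower values with GO as a list: 7 of 8 differences were above 0 for GO minus control, with a median of 0.11, and 0 passed. pha-4, which specifies the pharynx, had 24.8, 19.3 and 18.9 FPKM in control, 24.0, 26.6 and 25 with GO, and 18.1, 20.5 and 26.8 with GONH2 (GO minus control 0.26 ± 0.15, limma adjusted p = 0.777). ceh-22, an activator of myo-2 in pharyngeal muscle, overlapped between the groups (2.3 ± 0.74, 2.55 ± 0.577 and 2.36 ± 0.415 FPKM; SD, n = 3). unc-120, a body wall muscle factor, differed by 0.15 ± 0.13 in GO minus control (interval −9.66% to 35.5%, limma adjusted p = 0.904), and its groups overlapped.

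The 20 other thin filament genes tested had a median of −0.024 in GO minus control, with 12 below 0, and of −0.052 in GONH2 minus control, with 16 below 0; over all genes tested the medians were 0.024 and 0.0031, and 0 of the 20 passed. Among them, the abundant body wall troponin C gene pat-10 and the actin gene act-2 differed by 0.022 ± 0.047 and −0.15 ± 0.095 in GO minus control. The troponin genes of body wall muscle unc-27 (troponin I) and tnt-2 (troponin T) were at −0.016 ± 0.033 and −0.026 ± 0.037. The troponin I gene tni-1 was listed at 46.9, 45.7 and 32.6 FPKM in control, 32, 41.4 and 38.9 with GO, and 32.9, 31.9 and 41.3 with GONH2. Its groups overlapped, with differences of −0.14 ± 0.16 for GO minus control and −0.22 ± 0.16 for GONH2 minus control (limma adjusted p = 0.935 and 1). For the 13 genes of dense bodies, which anchor thin filaments to the membrane, the median was 0.034 and 0 passed. Examples are the integrin gene pat-3 (0.028 ± 0.036) and the zyxin gene zyx-1 (0.074 ± 0.04). The 10 M-line and giant protein genes had a median of 0.027, with lim-9 at 0.089 ± 0.078 and dim-1 at 0.0005 ± 0.056.

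The 5 chaperone genes of myosin folding all lay slightly below 0 in GO minus control (−0.048 to −0.0015), with hsp-90 at −0.033 ± 0.06 and sti-1 at −0.048 ± 0.059, and 0 passed. The 18 genes of excitation and calcium had a median of −0.00015, with the calcium pump gene sca-1 at 0.026 ± 0.052 and the potassium channel gene twk-18 at −0.028 ± 0.078. Of the 12 non-muscle myosin and actin genes 0 passed. The non-muscle regulatory light chain gene mlc-4 differed by −0.0061 ± 0.034 and the intestinal actin gene act-5 by −0.03 ± 0.094 in GO minus control.

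**Figure D4:**
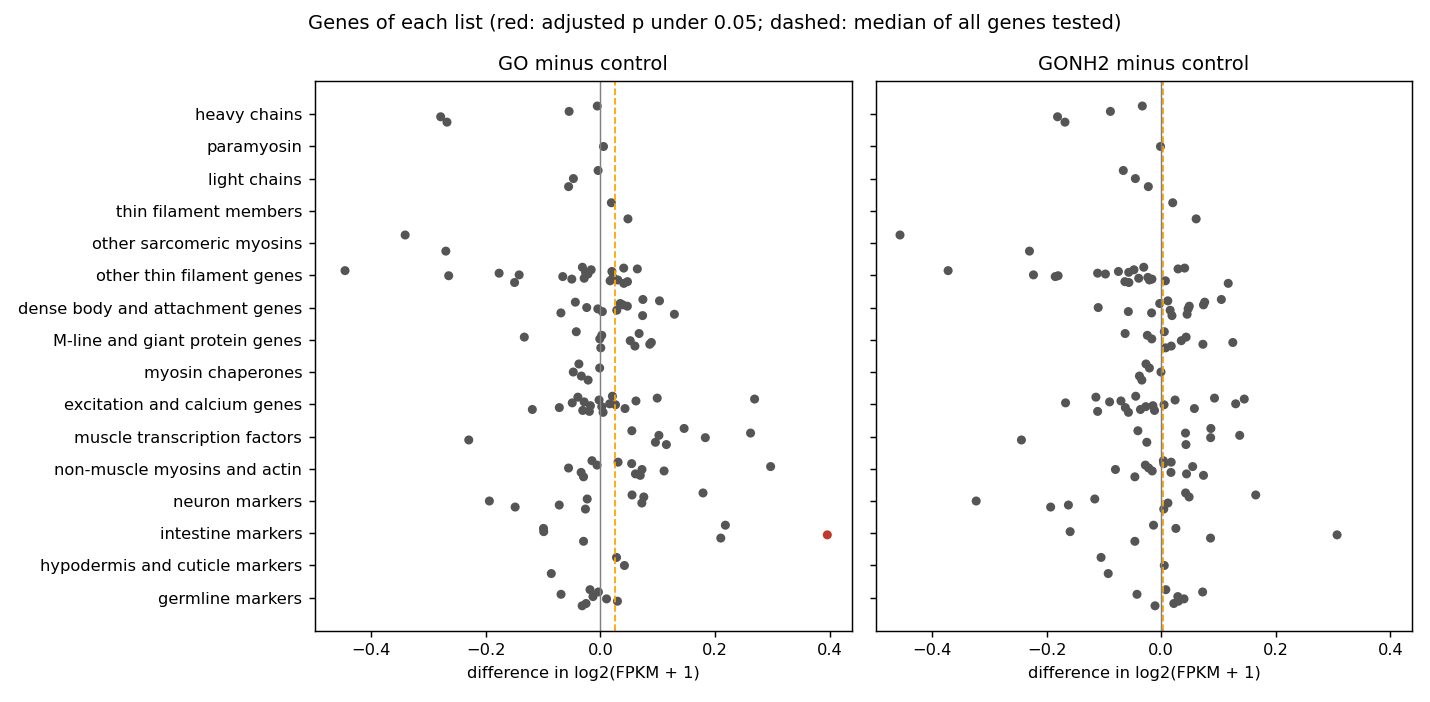
Differences in log2(FPKM + 1) for GO minus control (left) and GONH2 minus control (right); each point is 1 gene of the named list, red where the adjusted p is under 0.05, and the dashed line is the median of all genes tested. The single red point is the intestine marker ges-1 (0.396, GO minus control); the lowest muscle points are tnt-4 (−0.446) for GO and myo-6 (−0.456) for GONH2.

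Summed levels of marker lists of other tissues overlapped between control and either nanomaterial. For 8 germline markers they were 3453 to 3632 FPKM in control, 3477 to 3563 with GO and 3542 to 3646 with GONH2, with cpg-1 and puf-5 the highest. For 9 neuron markers they were 289 to 301.4, 290 to 319.3 and 285.8 to 301.3 FPKM, led by snb-1 and egl-3. For 6 intestine markers, led by act-5 and vha-6, they were 446.2 to 516.5, 448 to 528.4 and 456.8 to 474. For 7 hypodermis and cuticle markers, led by col-19 and sqt-3, they were 1138.8 to 1269.2, 1126.9 to 1166 and 1042.5 to 1194.3. Only 3 of these 7 passed the filter on low values and were tested. Of the marker genes tested only ges-1, an intestinal esterase gene, passed: it rose with GO from 20.7 ± 1.45 to 27.6 ± 0.235 FPKM (0.4 ± 0.062, limma adjusted p = 0.0177). With GONH2 its level was 25.9 ± 1.5 FPKM, also above control without overlap, but this difference did not pass (0.31 ± 0.062, limma adjusted p = 0.127). The GO call was lost without control replicate 3 (adjusted p = 0.0534) or GO replicate 1, 2 or 3 (0.0815, 0.0871 and 0.072), with the difference between 0.39 and 0.414.

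The neuron sum is mostly snb-1, at 195.4 to 224.5 FPKM, so it says little of the other neuron markers. Differences of the 9 neuron markers ran from −0.194 to 0.179 in GO minus control and from −0.323 to 0.165 in GONH2 minus control. The intestine sum is mostly act-5, at 243.6 to 308.4 FPKM, and the 6 intestine markers did not move alike in GO minus control. The proton pump subunit gene vha-6 was listed at 78.4, 79 and 77.9 FPKM in control, 92.5, 90.8 and 90.9 with GO, and 81.5, 81.2 and 70.8 with GONH2. Its GO libraries were above all others (0.22 ± 0.052 for GO minus control, unadjusted p = 0.00253, limma adjusted p = 0.14). elt-2, the intestinal GATA factor gene, differed by 0.21 ± 0.1 with overlapping groups (limma adjusted p = 0.696). The other 3 were below 0, at −0.03 ± 0.094 for act-5, −0.099 ± 0.079 for ifb-2 and −0.099 ± 0.28 for pept-1. The part of tissue make-up in the values of myo-1 and myo-2 was not tested.

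Outside the lists, the genes whose log2 values over the 9 libraries were most like the mean standardised profile of the 10 members were ddx-46, znf-622, pgp-6, F13H8.5 and pqn-74. Pearson's r, used only as a measure of likeness and picked as the highest of all genes tested, was 0.936, 0.919, 0.895, 0.894 and 0.882. ddx-46 stayed between 45.1 and 51.4 FPKM and znf-622 between 105.9 and 118.7, and the other 3 genes were at 5.89 FPKM or less in every library.

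In the WBcel235 annotation mlc-1, mlc-2 and act-4 each overlap a protein-coding gene on the opposite strand, namely slc-17.1, C36E6.2 and M03F4.6. These were listed at 5.13 to 7.08, 15 to 18.4 and 3.24 to 5.28 FPKM, far below the members. The library kit kept strand, but whether the counting used it is not given in the sources used here. Non-coding RNA genes that overlap myo-1, myo-3 and lev-11 were listed at 0 in every library.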

How the data were processed

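Worms were lysed in TRIzol with a bead homogeniser and RNA was cleaned up with an RNeasy kit, per the labels' protocols. TruSeq stranded libraries were read paired-end on a HiSeq 4000. The authors deposited FPKM per WormBase gene ID. The submitters' processing notes list DESeq2 but not its part in these values. Aligner, counter, build and annotation: not given in the sources used here. Columns were matched to samples by title.

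Of 46284 IDs, 43325 had a symbol in the names table. Of 128 listed symbols, 127 were matched (not tmd-1). Positions come from the Ensembl release 115 annotation of WBcel235. FPKM were converted to log2(FPKM + 1), and 12849 genes reaching 1 FPKM in 3 or more libraries were kept. limma 3.58.1 (R 4.3.3) fitted group alone to all 9 libraries, with a mean-variance trend (prior df 2.47, residual df 6), with Benjamini-Hochberg adjustment across the 12849 genes (threshold 0.05). The fit was tested on simulated data. Fold changes on this scale understate those of low genes. Depth is unknown: at most 10.4% of low values (under 0.5 FPKM) shared the commonest ratio to control replicate 1, so no reads were recovered. No count model was used.

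The members and gene lists were chosen with earlier results of these data known. Named were all members, the called genes of the other lists and the 2 most abundant of each list, and the 5 genes most like the members; others were chosen after their values were seen. Figures were drawn with matplotlib 3.10.9 in Python 3.11.15. Alternatives covered the added value, the filter, 2 scalings, the trend, array weights, 6-library fits, the replicate block and leaving out each library.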

Additional observations from a re-analysis of the deposited data

How the results depend on the processing

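Under all 19 alternatives, 0 of the 10 members were called in any comparison, and myo-1 and myo-2 stayed lower in GO and GONH2 than in control. For GO minus control, myo-1 ranged from −0.32 to −0.196 (limma adjusted p 0.0996 to 0.532) and myo-2 from −0.353 to −0.201 (0.138 to 0.69). For GONH2 minus control, myo-1 ranged from −0.22 to −0.124 and myo-2 from −0.255 to −0.103, the last without control replicate 1. The unadjusted p of myo-1 in this comparison was above 0.05 under 11 of the 19 alternatives, among them each omission of 1 library except control replicate 3. The call of the marker ges-1, checked under the same alternatives after the data were seen, was also lost in the fit on 6 libraries (limma adjusted p = 0.0536). Members that changed sign were near 0 and not called: for GO minus control, unc-15 was −0.0241 and lev-11 −0.00895 under median-of-ratios scaling, −0.0372 and −0.022 under upper-quartile scaling, and unc-15 −0.0111 and mlc-3 0.0065 with array weights; for GONH2 minus GO, unc-15 was 0.0176 and 0.0162 under the 2 scalings, and unc-15 0.00536, myo-3 0.0074 and act-4 −0.000358 with array weights. The cause was not tested.

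Leaving out 1 library, the values that changed sign ranged as follows. For GO minus control: unc-54 −0.027 to 0.0167, myo-3 −0.163 to 0.0496, unc-15 −0.0104 to 0.0236, mlc-3 −0.0275 to 0.026 and lev-11 −0.0149 to 0.039. For GONH2 minus control: myo-3 −0.167 to 0.0157, unc-15 −0.028 to 0.0223 and lev-11 −0.000552 to 0.0374. For GONH2 minus GO: myo-3 −0.125 to 0.0745, unc-15 −0.0318 to 0.0185, mlc-2 −0.0138 to 0.0221, lev-11 −0.0189 to 0.035 and act-4 −0.0416 to 0.0505.

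Over all genes, main counts higher and lower were 139 and 23 for GO minus control, 46 and 10 for GONH2 minus control, and 5 and 12 for GONH2 minus GO. Leaving out 1 library gave 90 to 144 and 14 to 26, 19 to 47 and 3 to 8, and 0 to 6 and 1 to 15. Counts moved by over 1.5 times as follows. GO minus control had 90 higher without GO replicate 2, and 14, 15 and 15 lower without control replicate 1, control replicate 2 and GO replicate 2. GONH2 minus control had 22, 26, 19 and 20 higher without control replicates 1 and 3 and GONH2 replicates 1 and 2, and 3, 4, 6, 6, 5, 5 and 4 lower without control replicates 1 and 2, GO replicates 2 and 3 and GONH2 replicates 1, 2 and 3. GONH2 minus GO had 2, 3, 2 and 0 higher without GO replicate 1 and GONH2 replicates 1, 2 and 3, and 6, 3, 7, 7, 6 and 1 lower without GO replicates 1, 2 and 3 and GONH2 replicates 1, 2 and 3. For GONH2 minus control there were 27 and 5 with no filter, 22 and 5 without the trend, 27 and 6 in 6-library fits, and 71 higher with array weights. For GONH2 minus GO there were 3 higher with the 5 FPKM filter, 5 lower without the trend and 36 lower with array weights. The replicate block gave 25 and 4 for GONH2 minus control and 3 and 5 for GONH2 minus GO. No pairing by replicate number was seen in the values. Deviations of same-numbered libraries correlated at −0.168 to 0.131, and those of differently numbered libraries of different groups at −0.248 to 0.269. These correlations cannot show whether same-numbered libraries were prepared together. Under the replicate block, 0 members were called. Precision rests on 3 libraries per group, and the part of read depth in it is unknown.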
